A study of Mus musculus with 36 samples.

Results

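Brown adipose tissue (BAT) from mice given an amino acid mixture was compared with BAT from mice given water. The mixture, CAAM, copies the amino acid composition of the milk protein casein. The comparison was made on the BAT arrays titled CAAM or water (DW in the titles), which are 12 of the 36 arrays given here (5 CAAM and 7 water); 12 arrays of white fat (WAT) and 12 of liver came from the same mice. The mice were males of the outbred ddY stock, given as 5 weeks old, and were acclimated to the laboratory before dosing. They received either 1.8% CAAM or water by mouth once a day, at 37.5 uL per g of body weight, for 5 doses. The study's methods also state that all mice were put in clean cages without food on the last day, before the last dose. Tissue was taken 4 h after that dose. Neither group carried a transgene or mutation that the labels name, and each mouse gave 1 Affymetrix Mouse Genome 430 2.0 array per tissue. By the study's methods, 2 CAAM mice were set aside because of an abnormal liver, which leaves CAAM mice 2, 4, 5, 6 and 7 against water mice 1 to 7. The mice of the 2 groups are different animals, so their numbers do not pair them.

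Brown adipocytes burn fatty acids, glucose and branched-chain amino acids in mitochondria that are uncoupled by Ucp1, the protein that lets protons back across the inner membrane so that their energy is released as heat. The tissue is switched on by noradrenaline through beta-adrenergic receptors and cyclic AMP, and it also responds to insulin, glucocorticoids and the clock. Amino acids reach it through plasma membrane carriers, are sensed by mTORC1 and by the ATF4 pathway, and the branched-chain ones are broken down in its mitochondria.

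The deposited value of each probe set is a score made by the distribution free weighted method (DFW). Its level runs like a log2 intensity, from 5.46 to 16.4 on the BAT arrays, but the method shrinks the deviations between arrays by a factor that differs between probe sets. The SD between BAT arrays had a median of 7.38e-06 and a 95% quantile of 0.000285, so a difference in score is not a log2 fold change and no fold changes are given. Each difference is therefore written as CAAM minus water divided by the SD within groups (the standardised difference, in SD units), and values of single mice as the deviation from the mean of the 12 arrays in the same units (the standardised score). With 5 and 7 arrays, a standardised difference has a standard error of 0.586 SD units.

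The main markers of brown fat were high on the BAT arrays. Ucp1 averaged 14.2 on the BAT arrays, 6.44 on the WAT arrays and 6.27 on the liver arrays. The lipid droplet protein Cidea stood at 14.0 in BAT, 6.77 in WAT and 6.42 in liver, and the cytochrome c oxidase subunit Cox8b at 14.1, 8.04 and 6.60. The inducible markers were lower: Elovl3, a fatty acid elongase, averaged 8.47 in BAT, 6.33 in WAT and 9.84 in liver, and Dio2, which activates thyroid hormone, 7.51, 6.42 and 6.13, with 71.3% of probe sets below it in BAT. Leptin (Lep), a hormone of white fat, was at 7.34 in BAT and 11.3 in WAT, and albumin (Alb), made by hepatocytes, at 6.54 in BAT and 15.0 in liver. The 6 blood markers ranged between 6.39 for the neutrophil gene S100a9 (27.8% of all probe sets below it) and 7.66 for the T cell gene Cd3e (74.1%). The erythroid genes Hba-a1 and Alas2 were at 6.62 (41.8%) and 7.38 (68.8%). Macrophage genes ranged between 7.34 (Adgre1) and 9.35 (Csf1r), and endothelial genes between 7.94 (Pecam1) and 9.62 (Cdh5), with 67.8 to 93.1% of probe sets below them in BAT.

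Skeletal muscle genes differed widely between the BAT arrays. Acta1, the actin of skeletal muscle fibres, scored 15.83, 8.21, 7.21, 6.93 and 6.62 in CAAM mice 2, 4, 5, 6 and 7, against 16.44, 8.90, 14.95, 7.47, 8.54, 8.54 and 12.39 in water mice 1 to 7. CAAM mouse 2 and water mice 1, 3 and 7 stood apart from the other 8 arrays. The median score of 25 muscle genes ranged between 6.52 and 8.39 in CAAM mice and between 6.69 and 8.85 in water mice, and the same 4 arrays were highest. In whole tissue, more muscle cells and more muscle RNA per cell cannot be told apart. All 25 muscle genes had a lower mean in CAAM mice, with a median standardised difference of -0.43 (-0.97 without CAAM mouse 2 and -0.14 without water mouse 1). The muscle-rich arrays were 1 of 5 in the CAAM group and 3 of 7 in the water group. List medians are also given without these 4 arrays, a choice made after seeing the data. For the muscle list itself that median was -1.61, with 2 of the 25 genes higher in CAAM mice. What part muscle RNA had in the other differences was not tested.

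**Figure D1:**
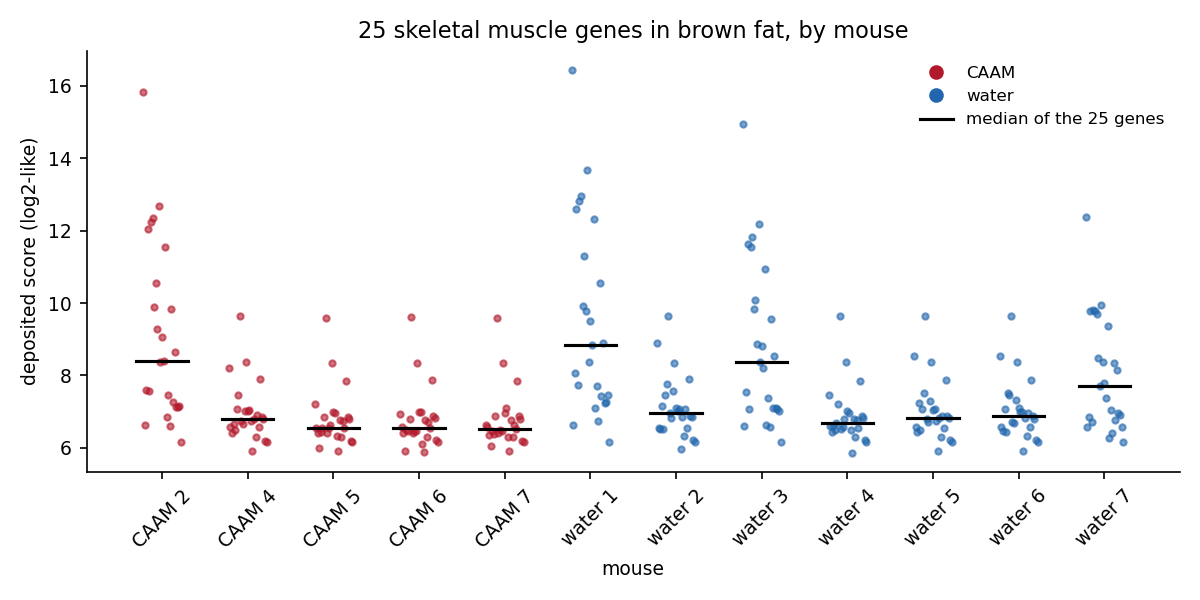
Deposited scores (log2-like, vertical axis) of 25 skeletal muscle genes in the 5 CAAM mice and the 7 water mice (horizontal axis); each point is a gene and each bar the median of the 25 genes. CAAM mouse 2 and water mice 1, 3 and 7 have medians between 7.71 and 8.85, and the other mice between 6.52 and 6.97.

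Across the 45037 probe sets tested, no difference between CAAM and water passed the threshold after adjustment. With limma and Benjamini-Hochberg adjustment, 0 probe sets passed 0.05, and the lowest adjusted p was 0.347. At an unadjusted p under 0.05, 1696 probe sets were higher in CAAM mice (3.77%) and 1190 lower (2.64%). The CAAM and water mice did not overlap for 86 probe sets that were higher in CAAM (0.191%) and 62 that were lower (0.138%). Leaving out CAAM mouse 2 gave 5 probe sets past the adjusted threshold: Hoxa4, lower in CAAM, and Uimc1, Ngly1, Smarcd2 and a probe set without a gene symbol, higher. Without the 4 arrays rich in muscle RNA, Hoxa4 was lower and G0s2 was higher (limma adjusted p = 0.0191). All these genes are named because of those values. The 4 arrays include CAAM mouse 2, so the 2 settings are not separate. That mouse stood apart from the other CAAM mice for Hoxa4 (0.89, against -2.70 to -2.14 SD units) and G0s2 (-1.11, against 1.56 to 1.90). A fit that took the spread from all 36 arrays gave 163 probe sets, on the assumption of 1 spread per probe set in the 3 tissues. Quantile normalization between arrays moved the median difference of all probe sets from -0.01 to 0.60 SD units, and 195 of the 257 list genes with a lower mean in CAAM then had a higher one, against 1 of 304 the other way; centring changed the sign of 0. A lower mean of a single gene below is therefore one on the deposited scores, and it turned in most cases after quantile normalization. Unlike differences could also become alike: Scd1, Cycs and Acadl, with scores of 13.9 to 14.6, went from -0.88, -1.41 and 0.89 to 0.18 each. A value after quantile normalization is therefore not read alone as the direction of a gene. Of the 304 with a higher mean, 189 then lay below the 0.60 of all probe sets.

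Rank products, the test named in the study's methods, called 533 probe sets higher (1.18%) and 926 lower (2.06%) in CAAM mice, 35 of them in both directions. It ranks score differences among all probe sets, and probe sets with a wide spread filled the ends of the ranking: 97.4% of the called probe sets lay in the decile with the widest spread, where 11.7% were called higher and 19.9% lower. The median SD of that decile was 216 times that of the narrowest decile. Dividing each difference by the SD left 82 probe sets called higher (0.182%) and 127 lower (0.282%), and leaving out the 4 muscle arrays gave 421 (0.935%) and 383 (0.85%). The rank products calls are used here as a ranking by size of score difference; a call is not taken to show that a gene changed.

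**Figure D2:**
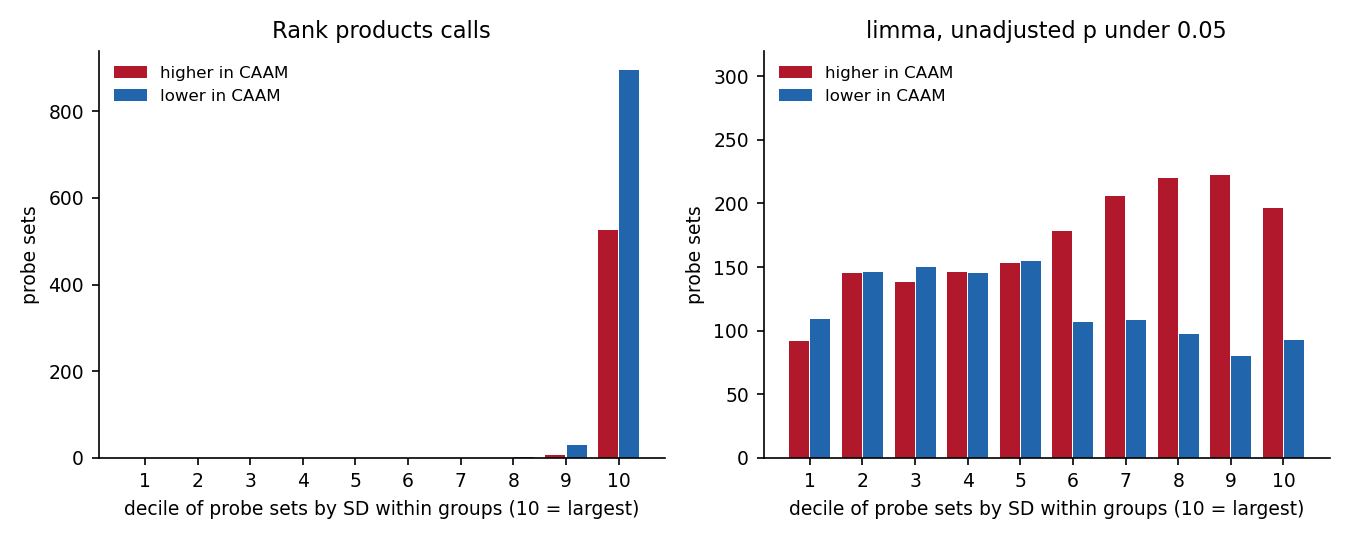
Number of probe sets (vertical axes) higher or lower in CAAM than in water mice, in deciles of all probe sets by SD within groups (horizontal axes), for rank products calls on the left and for an unadjusted limma p under 0.05 on the right. In the widest decile, rank products called 527 higher and 895 lower, whereas limma counts there were 196 and 93.

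Genes that answer to glucocorticoids had the highest median difference of the 33 lists examined, although no single one passed after adjustment. Glucocorticoids bind a receptor that sits on DNA at palindromic response elements and switches on genes such as Per1, Sgk1, Fkbp5, Tsc22d3 and Ddit4. Of 21 measured genes in a list of glucocorticoid targets and metallothioneins, 19 had a higher mean in CAAM mice, against 50.1% of the 18193 genes measured. The list had a median standardised difference of 0.80, against -0.01 for all probe sets (0.93 without the 4 muscle arrays; from 0.61 without CAAM mouse 6 to 1.04 without CAAM mouse 2). An unadjusted p under 0.05 was reached by 6 genes upward and 0 downward, against 4.29 and 2.4% of all genes, and none passed after adjustment. After quantile normalization the list median was 0.82, against 0.60 for all probe sets. The genes of a list share the same mice, and the lists were chosen with earlier results of these data known, so these counts are a description. Lists also share genes: Ddit4 is in the fasting list and Per1 in the clock list as well.

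Per1, a clock component and a direct target of the receptor, had standardised scores of 0.42, 1.35, 0.75, 1.74 and 2.15 in CAAM mice 2, 4, 5, 6 and 7, against a lowest of -1.85, a median of -1.53 and a highest of 1.18 in water mice. Ddit4, an inhibitor of mTORC1 that is induced by glucocorticoids, fasting and low oxygen, scored 8.343, 8.468, 8.346, 8.499 and 8.498 in CAAM mice, against a lowest of 8.129, a median of 8.236 and a highest of 8.463 in water mice. All 5 CAAM mice were above the median of the water mice for both genes, and 3 were above all water mice; water mouse 6 was the high water mouse for both. The difference was 2.2 SD units for Per1 (adjusted p = 0.645) and 0.161 ± 0.0553 score units, or 1.65 SD units, for Ddit4 (adjusted p = 0.704).

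Sgk1, a kinase that regulates ion channels, stood at 0.74, 0.99, 1.36, 0.03 and 1.47 SD units in CAAM mice, against a lowest of -2.23, a median of -1.05 and a highest of 0.79 in water mice. Klf15, a transcription factor of amino acid breakdown and gluconeogenesis, was at -1.31, 1.20, 1.78, 1.39 and 1.43 in CAAM mice, against a lowest of -1.96, a median of -0.70 and a highest of 0.49 in water mice. For Klf15, CAAM mouse 2 fell among the water mice and the other 4 CAAM mice lay above them all. Errfi1, a brake on EGF receptor signalling, differed by 1.58 SD units and Cebpd, a transcription factor of acute stress, by 1.38, and for both genes each CAAM mouse lay above the water median while water mouse 6 was highest of all 12. The metallothioneins, which bind zinc and are also induced by glucocorticoids, did not go along: Mt1 differed by 0.01 SD units and Mt2 by -0.14. Fkbp5, the co-chaperone that restrains the receptor, differed by 0.79, Tsc22d3 (GILZ, an anti-inflammatory target) by 0.80, and the receptor gene Nr3c1 by -0.12.

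The water mice lowest in this list were mice 3 and 7, with mean standardised scores of -0.94 and -0.81 over the 21 genes, and both carried muscle RNA (list scores of 1.11 and 0.18). Water mouse 1, which had the highest muscle score (2.01), was at -0.33, above water mice 2 (-0.42) and 5 (-0.61). CAAM mouse 2, lowest of the CAAM mice at -0.12, carried muscle RNA as well (1.43). The 5 CAAM mice ranged between -0.12 and 0.90 and the 7 water mice between -0.94 and 0.36, so the groups overlapped. Without the 4 muscle arrays, 18 of the 21 genes were higher in CAAM.

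The promoters of this list, of the immediate early genes and of the fasting genes were searched for 3 short motifs. RefSeq promoter windows (250 bases before to 50 bases after an annotated start, GRCm38.p6) were matched for 17 of the 21 glucocorticoid genes (27 windows), 21 of 26 immediate early genes (27 windows) and 21 of 23 fasting genes (23 windows). The glucocorticoid response element, searched as GNACANNNTGTNC, which reads the same on both strands, occurred in 2 windows of the glucocorticoid list (7.41%), 1 of the immediate early list (3.7%, Jund) and 2 of the fasting list (8.7%, Trim63 and Txnip), against 0.475% of all 32851 windows. Its share was thus no higher in the glucocorticoid list than in the fasting list. The cyclic AMP response element, searched as TGACGTCA on both strands, was in 2 windows of the glucocorticoid list (7.41%), 2 of the immediate early list (7.41%, Btg2 and Maff) and 0 of the fasting list, against 1.79% of all. The FOXO site GTAAACA, on both strands, was in 1 window (3.7%, Klf9), 1 window (3.7%, Junb) and 3 windows (13%, Sesn1, Trim63 and Txnip) of these lists, against 3.65% of all. No window of the glucocorticoid list held more than 1 of the 3 motifs. The 4 windows of the glucocorticoid list with a glucocorticoid or cyclic AMP element are shown 5' to 3' on the gene's strand, with the matched letters in capitals: Sgk1 at chr10:21993640-21993939 (1 of several Sgk1 windows, plus strand, match at -188 to -176 from the start), Mt1 at chr8:94178839-94179138 (plus strand, -94 to -82), Dusp1 at chr17:26508423-26508722 (minus strand, -143 to -136) and Errfi1 at chr4:150854820-150855119 (plus strand, -51 to -44).
Sgk1: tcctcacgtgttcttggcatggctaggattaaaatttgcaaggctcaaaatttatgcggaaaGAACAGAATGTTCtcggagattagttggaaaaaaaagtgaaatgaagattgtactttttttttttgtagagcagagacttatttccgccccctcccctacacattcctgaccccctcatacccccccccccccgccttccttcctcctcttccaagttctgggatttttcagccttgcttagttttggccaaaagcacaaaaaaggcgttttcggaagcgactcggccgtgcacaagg
Mt1: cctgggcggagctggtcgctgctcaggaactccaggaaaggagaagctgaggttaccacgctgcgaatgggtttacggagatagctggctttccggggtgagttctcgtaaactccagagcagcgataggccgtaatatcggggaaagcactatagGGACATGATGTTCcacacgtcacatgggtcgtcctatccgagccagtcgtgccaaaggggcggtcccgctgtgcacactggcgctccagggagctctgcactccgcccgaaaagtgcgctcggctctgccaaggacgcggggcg
Dusp1: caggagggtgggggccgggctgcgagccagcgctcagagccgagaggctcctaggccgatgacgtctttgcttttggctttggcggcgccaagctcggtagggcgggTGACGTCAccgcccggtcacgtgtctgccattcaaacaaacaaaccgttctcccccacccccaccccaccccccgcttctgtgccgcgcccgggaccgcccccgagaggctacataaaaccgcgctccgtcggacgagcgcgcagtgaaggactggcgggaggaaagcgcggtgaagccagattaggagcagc
Errfi1: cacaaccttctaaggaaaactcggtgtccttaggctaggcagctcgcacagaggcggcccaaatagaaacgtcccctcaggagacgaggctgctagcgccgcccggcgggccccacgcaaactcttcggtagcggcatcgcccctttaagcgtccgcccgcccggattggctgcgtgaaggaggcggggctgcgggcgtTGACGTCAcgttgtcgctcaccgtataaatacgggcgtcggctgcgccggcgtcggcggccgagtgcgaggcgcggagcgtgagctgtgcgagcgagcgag
Of these 4 genes, Sgk1 (1.57 SD units), Errfi1 (1.58) and the phosphatase gene Dusp1 (0.84) had higher means in CAAM mice, and Mt1, also with a match, was at 0.01. Per1 and Ddit4, with the largest differences in the list in SD units, had no match in these windows. A match is a description of the letters, not of binding.

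Immediate early genes, which are switched on within minutes of a stimulus, showed a like pattern on a smaller scale. Of 26 measured, 21 had a higher mean in CAAM mice, with a median of 0.38 SD units (0.71 after quantile normalization), and 3 reached an unadjusted p under 0.05 upward and 0 downward, against 4.29 and 2.4% of all genes. The list score was 1.07 in CAAM mouse 5 and 1.08 in CAAM mouse 7, against -0.57 to 0.15 in the water mice, while the other CAAM mice lay within that range. Gadd45g, a stress sensor that in mouse brown fat is also turned on by cold, scored 0.19, 1.67, 1.51, 1.26 and 2.35 SD units in CAAM mice, against a lowest of -2.61, a median of -1.14 and a highest of 0.46 in water mice. Its difference was 0.0370 ± 0.00878 score units (2.39 SD units, adjusted p = 0.628), and 4 of 5 CAAM mice were above all water mice. Fosl2, a subunit of AP-1, differed by 1.85 SD units and the flow-responsive factor Klf2 by 1.31, with each CAAM mouse above the water median, whereas Fos differed by -0.12, Egr1 by -0.26 and Ier5 by -0.82. The orphan receptors Nr4a1 (1.11) and Nr4a3 (1.26) exceeded the middle water mouse in 4 of 5 CAAM mice; for Nr4a1, CAAM mouse 6 stood at -0.86 and the other CAAM mice between 0.84 and 1.31.

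**Figure D3:**
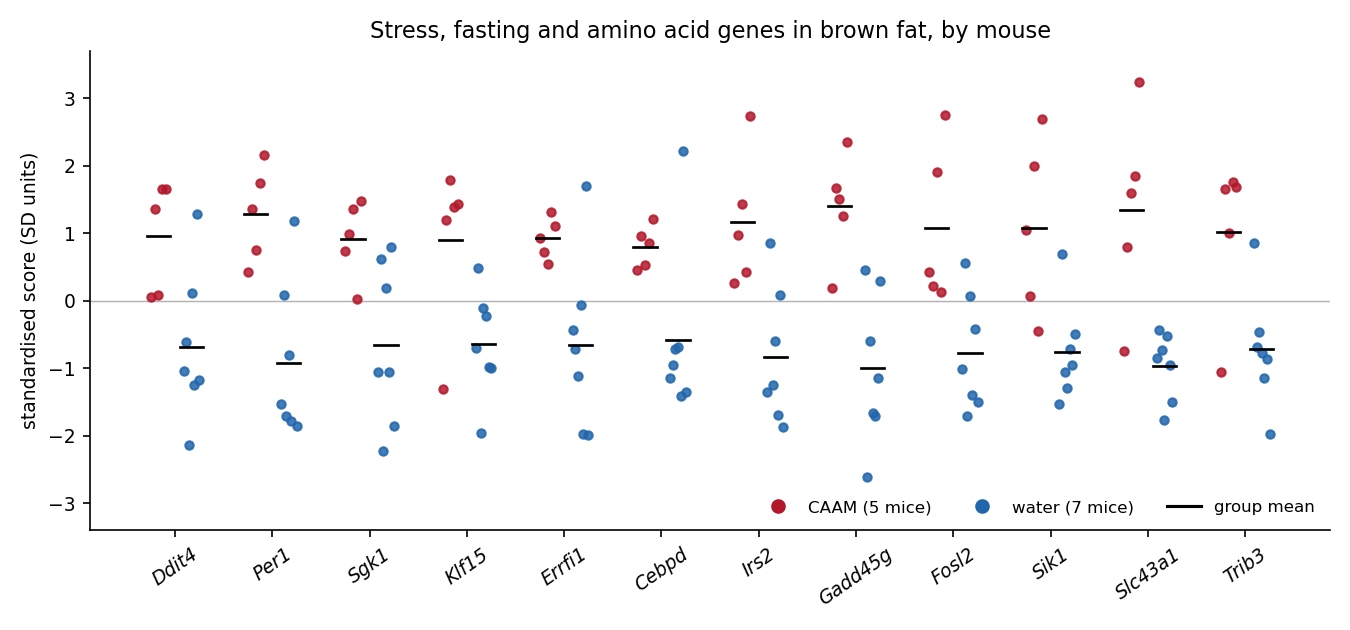
Standardised scores (SD units, vertical axis) of 12 genes in CAAM mice (left of each pair, 5 mice) and water mice (right, 7 mice); bars are group means. The CAAM mean is above the water mean and the groups overlap for each of the 12 genes; CAAM mouse 2 is the low CAAM point for Klf15 (-1.31), Slc43a1 (-0.74) and Trib3 (-1.05).

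Fasting genes and targets of FOXO factors, which insulin keeps out of the nucleus, were mixed. Of 23 measured, 16 were higher in CAAM mice with a median of 0.47 SD units (0.92 without the 4 muscle arrays), and 4 reached an unadjusted p under 0.05 upward and 1 downward, against 4.29 and 2.4% of all genes. After quantile normalization the median was 0.49, below that of all probe sets. Irs2, the insulin receptor substrate that FOXO factors induce when insulin is low, scored 7.627, 7.660, 7.680, 7.635 and 7.740 in CAAM mice, against a lowest of 7.531, a median of 7.559 and a highest of 7.655 in water mice. Its difference was 0.0903 ± 0.0257 score units (1.99 SD units, adjusted p = 0.671), with 3 CAAM mice above all water mice. Foxo3 differed by 1.40 and Foxo1 by 1.20 SD units. Pdk4, the pyruvate dehydrogenase kinase that rises on fasting, differed by 0.26, Angptl4, the lipoprotein lipase inhibitor, by -0.60, and Ucp3, a mitochondrial carrier of muscle and brown fat, by -1.41, so that the list was not of one direction. Depp1, a FOXO target outside the list, was 0.0672 ± 0.0267 score units higher in CAAM mice (1.43 SD units), and each CAAM mouse exceeded the median of the water mice. This Depp1 probe set is not the one with the highest mean in BAT for the gene.

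Insulin and mTORC1 signalling genes had a median of 0.47 SD units (14 of 24 higher; 0.12 without the 4 muscle arrays and 0.34 after quantile normalization). Tsc1 and Tsc2, which form the complex that holds mTORC1 off, differed by 1.63 and 1.42, and Rheb, the GTPase that the complex inactivates, by 1.12. Deptor, an mTOR inhibitor, differed by -1.16, Mtor by -0.73 and Akt2 by -0.75. In the clock list 12 of 20 genes were higher, with a median of 0.23 (from 0.07 without CAAM mouse 6 to 1.0 without CAAM mouse 2). Besides Per1, the nuclear receptor Rora (1.93) and the repressor Nfil3 (1.74) had 5 of 5 CAAM mice past the median water mouse. The core activator Arntl (-0.86) and the REV-ERB gene Nr1d1 (-0.31) were below it in 5 of 5, and the clock outputs Dbp (-0.11) and Hlf (0.03) were near 0.

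Branched-chain amino acid breakdown had the highest median of the metabolic lists on the deposited scores, a place it did not hold after quantile normalization. Brown fat oxidises leucine, isoleucine and valine after transamination by Bcat2 and entry into mitochondria through the carrier encoded by Slc25a44. Of 21 genes measured, 18 had a higher mean in CAAM mice, with a median of 0.68 SD units (0.81 without the 4 muscle arrays; from 0.47 without water mouse 1 to 1.02 without CAAM mouse 2). After quantile normalization its median was 0.35, below the 0.60 of all probe sets, which were not matched to it for score level. An unadjusted p under 0.05 was reached by 3 genes upward and 1 downward, against 4.29 and 2.4% of all genes. Mccc1, a subunit of the leucine pathway enzyme methylcrotonyl-CoA carboxylase, stood at 0.67, 0.85, 0.44, 1.09 and 1.31 SD units in CAAM mice, against a lowest of -2.34, a median of -0.34 and a highest of 0.67 in water mice. Ivd, which carries out the preceding step, stood at -0.30, 2.34, 0.07, 1.29 and 0.85 in CAAM mice, against a lowest of -2.54, a median of -0.43 and a highest of 0.30 in water mice. Each CAAM mouse was above the water median for both, with overlap of the groups for both; the differences were 1.49 (adjusted p = 0.723) and 1.46 SD units (adjusted p = 0.729), and 0.33 and 0.27 after quantile normalization.

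Within the pathway, the partner subunit Mccc2 differed by 1.20, Acadsb of the isoleucine branch by 1.27 and Hibadh of the valine branch by 1.11. Ppm1k, the phosphatase that activates the branched-chain ketoacid dehydrogenase, differed by 1.02, and Bckdk, the kinase that inactivates it, by -1.11 with each CAAM mouse below the water median. The dehydrogenase subunits gave smaller values (Bckdha 0.72, Bckdhb 0.21, Dbt 0.94, Dld 0.27), as did Bcat2 (0.53). Slc25a44, the mitochondrial carrier, went the other way (-1.37). CAAM mouse 2 and water mouse 1, both rich in muscle RNA, were the lowest of their groups in this list (-0.52 and -1.31), while the other 4 CAAM mice ranged between -0.11 and 0.93. Of the other water mice rich in muscle RNA, mouse 3 was at 0.14 and mouse 7 at -0.68.

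The ATF4 program, which cells start when an amino acid is short, had a median of 0.19 SD units (14 of 23 higher; -0.01 without CAAM mouse 7), and 3 genes reached an unadjusted p under 0.05 upward and 1 downward, against 4.29 and 2.4% of all genes. Asparagine synthetase (Asns) stood at 1.46, 0.97, -0.11, 1.09 and 1.62 in CAAM mice, against a lowest of -2.46, a median of -0.08 and a highest of 0.58 in water mice. Trib3, a pseudokinase induced by ATF4, stood at -1.05, 1.66, 1.0, 1.76 and 1.68 in CAAM mice, against a lowest of -1.97, a median of -0.77 and a highest of 0.85 in water mice. For each gene 4 of 5 CAAM mice lay above all water mice, the exception being mouse 5 for Asns and mouse 2 for Trib3. The differences were 1.72 and 1.73 SD units (0.34 and 0.74 after quantile normalization), and cystathionine gamma-lyase (Cth) differed by 1.34. The serine synthesis genes Phgdh (0.01) and Psat1 (0.43), Atf4 itself (-0.13), Ddit3 (-0.18) and Chac1 (0.18) were near 0, and Atf5, a factor related to Atf4, was at -1.55 with 3 of 5 CAAM mice below all water mice.

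Among amino acid transporters 10 of 23 were higher, and the median was -0.17 (0.58 after quantile normalization). Slc43a1, a facilitative carrier of leucine and other large neutral amino acids (LAT3), stood at -0.74, 0.80, 1.59, 1.84 and 3.24 SD units in CAAM mice, against a lowest of -1.77, a median of -0.85 and a highest of -0.43 in water mice. It was the carrier with the largest difference, 0.00474 ± 0.00116 score units (2.31 SD units, adjusted p = 0.645), with 4 of 5 CAAM mice above all water mice. Slc36a2, a proton-coupled carrier of small amino acids that marks brown fat, differed by 1.59 and the glutamine carrier Slc38a2, an ATF4 target, by 1.12, each CAAM mouse exceeding the water median for both. Slc43a2, the relative of Slc43a1 (LAT4), differed by -1.24, Slc1a5 by -0.91 and Slc7a5 (LAT1) by -0.47. The aminoacyl-tRNA synthetases had a median of 0.16 (13 of 19 higher; -0.09 without the 4 muscle arrays), and CAAM mouse 2 alone reached a list score of 1.33.

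Brown fat identity and heat production showed small differences. Of 23 genes, 8 were higher and 15 lower in CAAM mice, with a median of -0.30 SD units (0.34 after quantile normalization, against 0.60 for all probe sets). Ucp1 itself stood at 1.17, -0.79, -0.41, -1.40 and -0.44 in CAAM mice, against a lowest of -1.17, a median of 0.52 and a highest of 1.75 in water mice, a difference of -0.64 SD units (adjusted p = 0.948; 0.18 after quantile normalization). The groups overlapped over nearly the whole range. The proton channel gene Otop1 was at 1.45, -1.43, -1.35, -0.70 and -1.72 in CAAM mice, against a lowest of -0.69, a median of 0.72 and a highest of 1.66 in water mice; 4 of 5 CAAM mice lay below all water mice and CAAM mouse 2 near the top (-1.28 SD units; 0.30 after quantile normalization). The thioesterase Acot11 was likewise highest in CAAM mouse 2 (1.35) and lowest in CAAM mouse 7 (-1.96) among the CAAM mice, with a difference of -1.24. Dio2 differed by 0.25, Elovl3 by 0.19, Ppargc1a by 0.32, Prdm16 by -0.40 and Cidea by -0.30.

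Cyclic AMP signalling genes had a median of 0.33 (14 of 19 higher), and 0.05 without the 4 muscle arrays. Sik1, a kinase induced by cyclic AMP, stood at 1.05, 0.07, 2.0, -0.45 and 2.69 SD units in CAAM mice, against a lowest of -1.53, a median of -0.95 and a highest of 0.69 in water mice; its difference was 0.0263 ± 0.00815 score units (1.84 SD units). The phosphodiesterases Pde4d (1.77) and Pde3b (1.45), which degrade cyclic AMP, and Sik2 (1.16) exceeded the middle water mouse in 5 of 5 CAAM mice. Adcy3, an adenylyl cyclase that makes cyclic AMP, differed by -1.32. The beta-adrenergic receptor genes were not analysed here.

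In the lipolysis list, G0s2 and Aqp7 stood at opposite ends. G0s2, the inhibitor of adipose triglyceride lipase, stood at -1.11, 1.70, 1.85, 1.56 and 1.90 SD units in CAAM mice, against a lowest of -1.53, a median of -0.92 and a highest of 0.67 in water mice. Aqp7, the channel through which adipocytes release glycerol, stood at -2.12, 0.66, -1.66, -1.54 and -1.93 in CAAM mice, against a lowest of -0.15, a median of 0.62 and a highest of 2.34 in water mice. In each case 4 of 5 CAAM mice lay outside the water range, and the fifth (mouse 2 for G0s2, mouse 4 for Aqp7) lay inside it. The differences were 2.02 (adjusted p = 0.656; 0.43 after quantile normalization, below the 0.60 of all probe sets) and -2.26 SD units (adjusted p = 0.645; 0.26 after quantile normalization). Hormone-sensitive lipase (Lipe, -1.19), the lipid droplet protein Plin5 (-0.82), the fatty acid carrier Cd36 (-0.95) and Mgll (-0.61) were below the water median in each CAAM mouse, while Pnpla2, the lipase that G0s2 inhibits, differed by -0.22. The list median was -0.22, and 0.34 after quantile normalization.

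Fatty acid synthesis genes had a median of -0.25 (5 of 18 higher; 0.35 after quantile normalization), and the value was -0.93 without CAAM mouse 2 and 0.03 without CAAM mouse 7. CAAM mouse 2 had a list score of 1.60, against -1.05 to -0.19 in the other CAAM mice and -0.88 to 0.49 in the water mice. Scd1 (-0.88; 0.18 after quantile normalization), Scd2 (-0.64), Acly (-0.58) and Fasn (-0.56) exceeded the water median in CAAM mouse 2 only. The cholesterol list behaved likewise, with a score of 1.59 in CAAM mouse 2, -0.88 to -0.05 in the other CAAM mice and -0.65 to 0.82 in the water mice. Its median of 0.08 became -0.64 without CAAM mouse 2 and -0.60 without the 4 muscle arrays.

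Glycolysis and glucose uptake had a median of -0.42 (8 of 20 higher; 0.44 after quantile normalization). Pdk1, a kinase that closes pyruvate dehydrogenase and is induced at low oxygen, stood at -2.43, -1.82, 1.42, -0.88 and -1.42 in CAAM mice, against a lowest of 0.33, a median of 0.65 and a highest of 1.71 in water mice. Only CAAM mouse 5 lay within the water range, and the difference was -0.00284 ± 0.000917 score units (-1.76 SD units). Hexokinase 1 (Hk1) differed by -1.59 (0.59 after quantile normalization) and triose phosphate isomerase (Tpi1) by -1.30, whereas Pfkfb3, which makes the activator of phosphofructokinase, differed by 1.28 and Slc2a1 (GLUT1) by 0.86. Oxidative phosphorylation (16 of 24 higher, median 0.37), fatty acid oxidation (12 of 18, median 0.22) and the tricarboxylic acid cycle (11 of 17, median 0.09) had 0, 1 and 0 genes higher at an unadjusted p under 0.05 and 0 lower in each, against 4.29 and 2.4% of all genes. In triglyceride synthesis the mitochondrial glycerol phosphate dehydrogenase Gpd2 stood out, at -2.44 SD units (0.20 after quantile normalization) with 4 of 5 CAAM mice below all water mice.

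**Figure D4:**
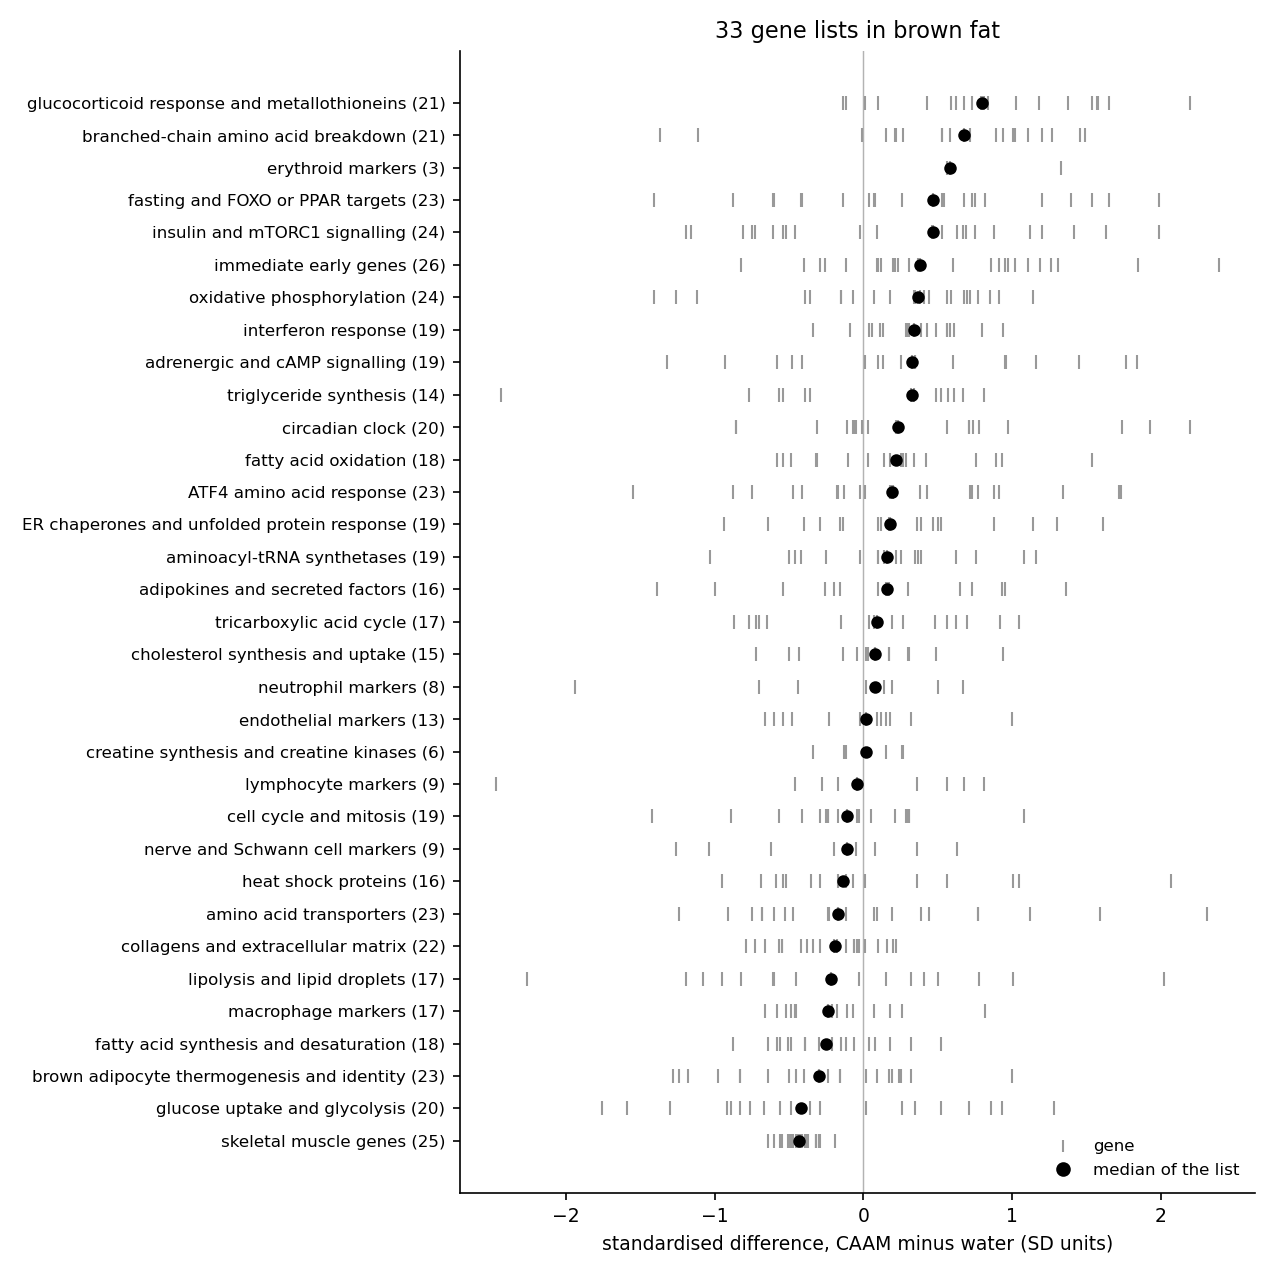
Standardised difference (CAAM minus water, SD units, horizontal axis) of each gene (ticks) and the median (points) of 33 gene lists, with the number of measured genes in brackets. Medians range between -0.43 for muscle genes and 0.80 for glucocorticoid targets and metallothioneins, and most lists span 0.

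In the lists of other cells and of stress, single mice stood out. Macrophage markers had a median of -0.24 (4 of 17 higher; 0.04 without water mouse 6), with the highest list score in water mouse 6 (1.76) and 0.64 as the highest in CAAM mice. The ECM and collagen list gave -0.19 (5 of 22 higher; 0.34 after quantile normalization), again with water mouse 6 highest (1.37); without that mouse the median was -0.02. Interferon response genes were higher in 17 of 19 cases, with a median of 0.34 that became -0.06 without CAAM mouse 7. The list score of that mouse was 1.83, CAAM mouse 5 followed at 0.99, and CAAM mice 2, 4 and 6 were at -0.60, -0.97 and -0.24, against -0.69 to 0.80 in the water mice. The B cell gene Ms4a1 did not overlap between the groups (-2.47 SD units, CAAM lower, and 0.50 after quantile normalization), yet with a score of 6.34 in both groups. It was named for its low limma p and was the 1 of 9 lymphocyte genes without overlap. Of all probe sets, 0.138% did not overlap in this direction. Heat shock genes had a median of -0.14 (6 of 16 higher; 0.27 after quantile normalization), with CAAM mouse 2 highest (1.08) and a median of -0.49 without it. The chaperones of the endoplasmic reticulum gave 0.18 (13 of 19 higher).

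The remaining lists lay near 0. Medians were 0.16 for adipokines and secreted factors (10 of 16 higher), 0.02 for creatine synthesis and creatine kinases, 0.08 for neutrophil markers, 0.02 for endothelial markers, -0.04 for lymphocyte markers, -0.11 for nerve and Schwann cell markers and -0.11 for the cell cycle. Erythroid markers stood higher at 0.58, but only 3 were measured. Among the secreted factors adiponectin (Adipoq, 1.36) and the angiogenic factors Apln (-1.39; 0.59 after quantile normalization) and Vegfa (-1.0; 0.18) had the largest values. After quantile normalization the lists of this paragraph had medians of 0.43 to 0.74.

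**Figure D5:**
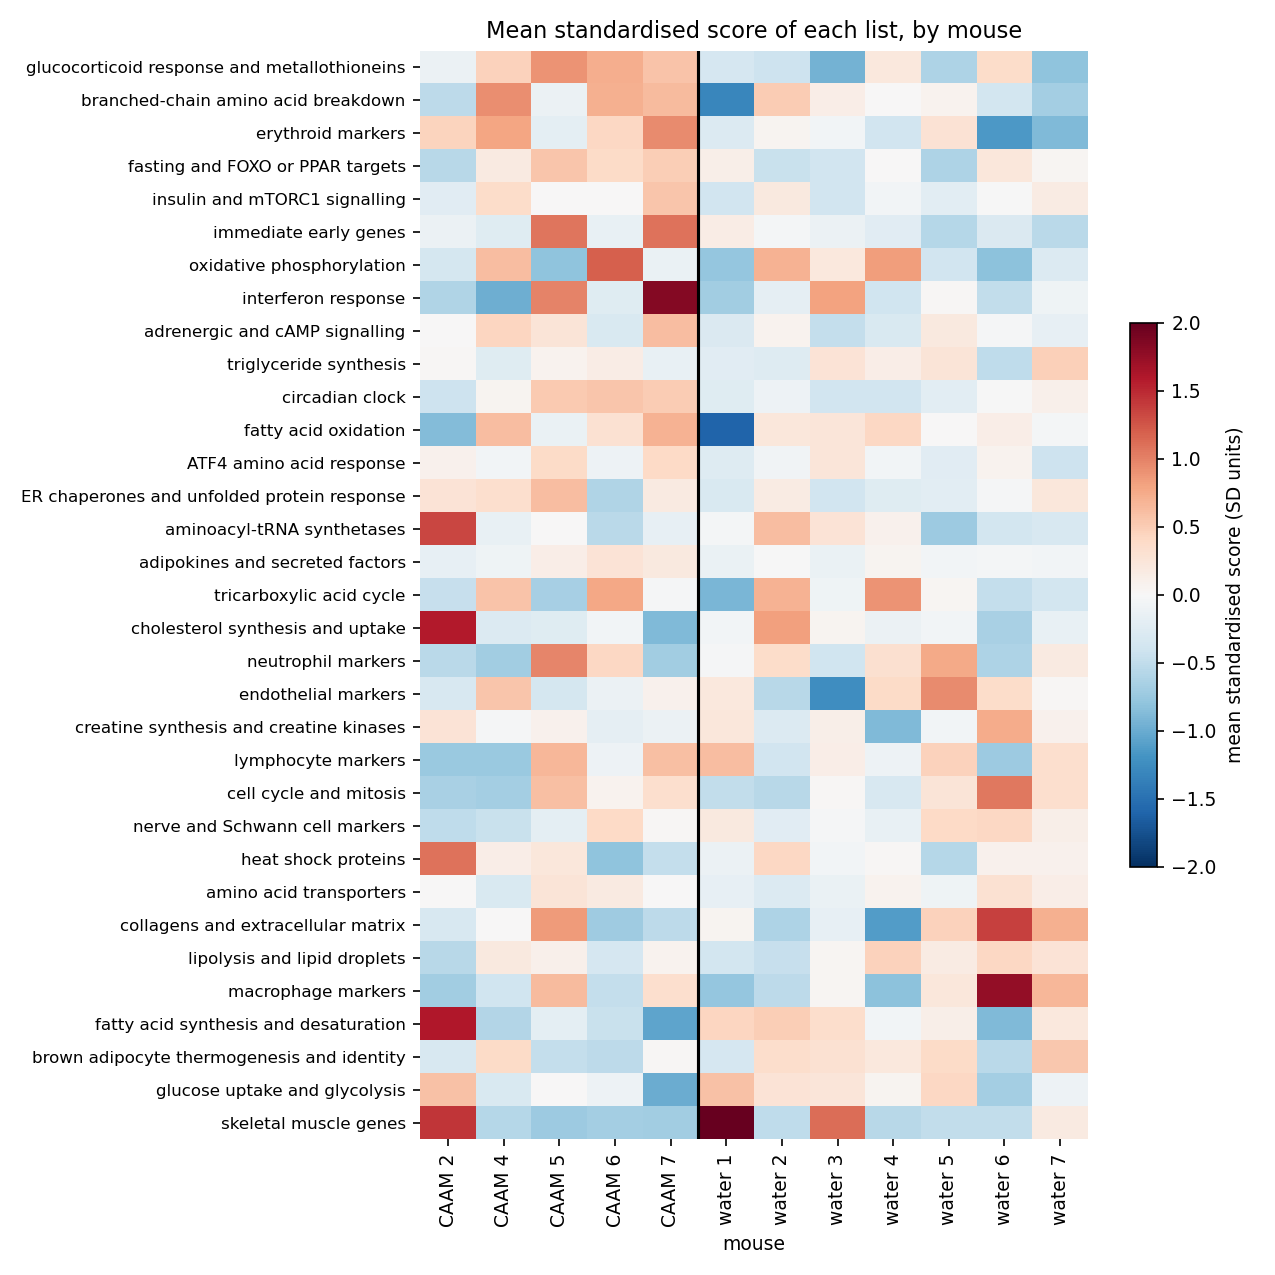
Mean standardised score (SD units, colour) of each of 33 gene lists (rows, ordered by their median difference) in the 5 CAAM mice (left of the line) and the 7 water mice (right). CAAM mouse 2 is high for fatty acid synthesis (1.60), cholesterol synthesis (1.59) and muscle genes (1.43); the glucocorticoid row is 0.46 to 0.90 in the other CAAM mice.

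Several of the genes with the lowest limma p were members of no list. For Prepl, Peli1, Gpr183, Ccnd1 and Hoxa4 the probe set described is not the gene's probe set with the highest mean in BAT. It was picked for its low p, and the values of the brighter probe set are not given here. Fbxw2, an F-box protein of a ubiquitin ligase, stood at 3.88, 2.39, 3.39, 4.75 and 2.71 SD units in CAAM mice, against a lowest of -4.42, a median of -2.07 and a highest of -1.56 in water mice. The groups were far apart in SD units, but the difference was 6.57e-06 ± 8.17e-07 score units on a score of 9.12 (5.87 SD units, adjusted p = 0.347), and 0.42 SD units after quantile normalization. The CAAM and water mice did not overlap for Fbxw2, as for 0.191% of all probe sets in this direction. The prolyl endopeptidase-like gene Prepl (3.35 SD units), the ubiquitin ligase Peli1 (3.30) and the BRCA1-associated Uimc1 (3.30), also picked for a low p, likewise did not overlap. After quantile normalization these were at 0.59, 0.51 and 0.39, so that all 4 higher genes lay below the 0.60 of all probe sets. Downward, Gpr183, an oxysterol receptor of immune cells, stood at -1.15, -2.18, -0.79, -2.45 and -3.38 in CAAM mice, against a lowest of 0.03, a median of 1.57 and a highest of 2.59 in water mice. Cyclin D1 (Ccnd1), which drives entry into the cell cycle, stood at -0.24, -2.31, -1.43, -2.18 and -2.01 in CAAM mice, against a lowest of 0.03, a median of 0.85 and a highest of 2.75 in water mice, a difference of -0.00146 ± 0.000296 score units (-2.80 SD units, adjusted p = 0.612). Neither probe set overlapped between the groups, as was so for 0.138% of all probe sets in this direction. The homeobox gene Hoxa4 stood at 0.89, -2.27, -2.70, -2.66 and -2.14 in CAAM mice, against a lowest of 0.65, a median of 1.27 and a highest of 1.75 in water mice, so that CAAM mouse 2 alone lay among the water mice (-3.05 SD units, adjusted p = 0.547). After quantile normalization Gpr183 (0.43) and Hoxa4 (0.35) changed sign and Ccnd1 was at -1.43.

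Sdhd, a subunit of succinate dehydrogenase, took 2 levels. It scored 6.670, 13.744, 12.761, 7.515 and 7.200 in CAAM mice, against a lowest of 7.573, a median of 12.861 and a highest of 13.668 in water mice. Scores of 7.573 or lower were found in 3 of 5 CAAM mice and 1 of 7 water mice, and the difference of -2.65 ± 1.52 was not larger than the spread (adjusted p = 0.844). In SD units the Sdhd difference was alike in the 3 tissues of these mice: -0.99 in BAT, -0.84 in WAT and -0.82 in liver. Irf4, a factor induced in fat by fasting and cold, was 0.0884 ± 0.0327 score units higher in CAAM mice (1.53 SD units), with CAAM mouse 7 at 2.65 and the other CAAM mice between 0.31 and 0.72, inside the water range of -1.48 to 1.33.

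Whether the effect of CAAM in BAT differed from that in the other tissues was tested on differences within mice. Against WAT 3 probe sets passed at an adjusted 0.05 (Zfp266, Trim23 and a probe set without a gene symbol; 0 to 2 with 1 mouse left out), and against liver 0 (8 without CAAM mouse 2). For Trim23, a ubiquitin ligase, the difference between CAAM and water was 2.07 SD units in BAT and -1.19 in WAT. Per1, Ddit4, Pdk1 and Irs2 did not pass this test: Per1 was at 2.2 in BAT, 1.21 in WAT and 0.93 in liver (adjusted p = 0.50 and 0.565 for the difference of BAT from each), Ddit4 at 1.65, 1.18 and 0.81, and Pdk1 at -1.76, -1.69 and -3.14. Irs2 was at 1.99 in BAT, 0.14 in WAT and -1.96 in liver (adjusted p = 0.476 and 0.346). The 3 tissues come from the same mice.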

How the data were processed

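RNA of brown fat, white fat and liver was hybridised to Affymetrix Mouse Genome 430 2.0 arrays, 1 per mouse and tissue. The deposited values are DFW scores made by the authors in R (version 2.7.2 per the labels); they are neither counts nor log2 ratios. Of 45101 probe sets, 64 AFFX controls were left out and 45037 were tested, with no filter on low values. The platform annotation gave 1 symbol to 34945 probe sets (18193 genes, 1 probe set per gene), several to 932 and none to 9160. The precision is set by the number of arrays and by the spread between mice. The mice are separate animals, and p-values weigh a difference against the spread between them.

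CAAM was compared with water by limma 3.58.1 in R 4.3.3 (empirical Bayes on the scores, Benjamini-Hochberg adjustment over all probe sets) and by the rank products test of the study's methods (35 pairs of arrays, 100 permutations, expected share of false calls under 0.05; 20 permutations in alternatives), written in Python 3.11.15. Both were tested on simulated arrays in which a small part of the probe sets was shifted by known amounts. Among the probe sets without a shift, rank products still made calls on values with such unequal spreads. Its calls therefore serve as a ranking only. The design had foreseen log2-like values; standardised differences replaced fold changes because the scores are shrunk. Effects in BAT and in another tissue were compared through differences within mice.

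Named by rule were the 10 genes per direction with the lowest rank product among the calls, the 10 per direction with the lowest limma p, the 2 with the lowest limma p in each list, and Ucp1, Adipoq, Lep and Alb; further list members are given for their roles, chosen after their values were seen. The 33 lists held 611 genes, of which 561 were measured and 50 are not analysed here. The comparison, members and lists were chosen with earlier results of these data known. Promoters came from RefSeq (GRCm38.p6). Alternatives were quantile normalization, centring, SD-divided ranks, a filter on dim probe sets, array weights, a trended robust prior, 1 fit of all arrays, the replicate number as a block, each array left out in turn and, added after seeing the data, leaving out 4 arrays rich in muscle RNA.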

Additional observations from a re-analysis of the deposited data

Results flagged for a closer look

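In 25 cases 1 mouse stood apart from the other mice of its group for a named gene, by Dixon's test, which chance passes in about 1 in 20 groups. Each of the 102 named genes was tested in both the CAAM and the water group. Values are standardised scores in SD units. CAAM mouse 2 accounted for 15 of them. In that mouse the muscle genes Acta1 (1.53), Myh1 (1.5), Tnnc2 (1.47), Myh4 (1.53), Ttn (1.48), Mylpf (1.52), Tnni2 (1.47), Tnnt3 (1.52), Ckm (1.49) and Ckmt2 (1.42) were high, while the other 4 CAAM mice were below 0 for each. Hoxa4 was also high there (0.89, against -2.70 to -2.14 in the other CAAM mice). Low in the same mouse were G0s2 (-1.11, against 1.56 to 1.90), Trib3 (-1.05, against 1.0 to 1.76), the squalene synthase gene Fdft1 (-2.08, against 0.76 to 1.86) and the endoplasmic reticulum protein Herpud1 (-0.56, against 0.97 to 1.54).

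Among the other CAAM mice, Irf4 was high in mouse 7 (2.65), Nr4a1 low in mouse 6 (-0.86), Aqp7 high in mouse 4 (0.66) and the gelatinase Mmp9 low in mouse 4 (-1.96). Among water mice, Sdhd was low in mouse 2 (-1.33), where Tmem87a was high (1.08). Trp53inp1 was high in mouse 6 (1.11), Pdk1 in mouse 7 (1.71), the immunoproteasome subunit Psmb9 in mouse 3 (0.78) and the glial protein S100b in mouse 5 (3.06).

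For 3 probe sets the difference between CAAM and water differed between BAT and WAT by a limma test of that difference. The difference of the standardised differences was 1.83 for Zfp266 (0.70 in BAT and -1.12 in WAT, adjusted p = 0.0496), 3.26 for Trim23 (2.07 and -1.19, adjusted p = 0.0496) and -2.62 for a probe set without a gene symbol (-0.34 and 2.29, adjusted p = 0.0107).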

How the results depend on the processing

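Rank products calls numbered 533 higher and 926 lower (1459 in all). They were 82 and 127 (209) on SD-divided differences, 228 and 310 (538) after quantile normalization, 306 and 509 (815) without dim probe sets, and 421 and 383 (804, 52.4% higher against 36.5%) without the 4 muscle arrays. With 1 array left out the total ranged between 1151 (without CAAM mouse 7) and 1620 (without CAAM mouse 2), with 273 (without CAAM mouse 5) to 611 higher and 679 to 1113 lower.

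The limma count past the adjusted threshold, 0 on all arrays, was 163 with 1 fit of all arrays, 2 without the 4 muscle arrays, 5 without CAAM mouse 2 and 0 without any other single array, and it stayed 0 with array weights and with the trended prior. At an unadjusted p under 0.05, 111 probe sets were higher and 8 lower after quantile normalization, and 508 lower without dim probe sets. Leaving out 1 array gave 1325 to 2472 higher and 917 to 1641 lower. The tissue differences ranged between 0 and 2 for BAT against WAT and between 0 and 8 for BAT against liver.

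The replicate numbers do not pair the mice: same-numbered arrays correlated in their deviations at -0.0871 to 0.0554. With the replicate block the adjusted count was 0 and the unadjusted counts 1354 and 1110, and the muscle genes Tnnc2 (0.03), Myh4 (0.02), Ttn (0.04), Mylpf (0.06), Tnni2 (0.14), Tnnt3 (0.19), Ckm (0.26) and Ckmt2 (0.36) became positive.

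Of 102 named genes, 63 kept their sign in every setting. With 1 array left out Lep ranged between -1.28 and 0.14 (without CAAM mouse 7). Quantile normalization, which moved the median of all probe sets to 0.60, turned 30 negative differences positive: Gpr183 0.43, Krt4 0.67, Ccser2 0.24, Fbxl14 0.44, Dst 0.24, Hoxa4 0.35, 1500009L16Rik 0.43, Bik 0.48, Clec2l 0.81, Otop1 0.30, Aqp7 0.26, Scd1 0.18, Gpd2 0.20, Hmgcs1 0.26, Yars 0.30, Hk1 0.59, Sdhc 0.37, Cycs 0.18, Apln 0.59, Vegfa 0.18, Ms4a1 0.50, Cxcr2 0.64, Mmp9 0.58, Pecam1 0.23, Mbp 0.53, Col15a1 0.71, Col4a2 0.37, Mcm2 0.79, Ucp1 0.18 and Alb 0.68. Of the 33 list medians, 10 changed sign under quantile normalization, 0 under centring, 7 without the 4 muscle arrays and 16 with some array left out. The causes were not tested.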
